A study of Caenorhabditis elegans with 25 samples.

Results

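The genes described here belong to enzyme families of fatty acid oxidation in Caenorhabditis elegans and were chosen by symbol. A symbol gives the family and does not show that fatty acids are the substrate of each enzyme. Every gene of the count table whose symbol starts with acdh-, ech-, acox-, acaa-, hacd-, cpt- or kat- was taken if it had at least 10 counts in at least 5 of the 25 libraries. All 39 such symbols met this rule, of 42532 genes in the table, and all 39 were among the 14634 genes tested. They comprise 13 acyl-CoA dehydrogenases (acdh), 10 enoyl-CoA hydratases (ech), 7 acyl-CoA oxidases (acox), 6 carnitine palmitoyltransferases (cpt), the thiolases acaa-2 and kat-1, and the hydroxyacyl-CoA dehydrogenase hacd-1. By family, 25 were counted as mitochondrial and 9 as peroxisomal (the acox genes with ech-8 and ech-9), and 5 ech genes were left unassigned. These compartments are a hand assignment and not a measurement.

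Both organelles shorten fatty acids by rounds of oxidation, hydration, a second oxidation and thiolytic cleavage. In mitochondria carnitine palmitoyltransferases bring the acyl chain in, acyl-CoA dehydrogenases start each round, and enoyl-CoA hydratases, hydroxyacyl-CoA dehydrogenases and thiolases complete it. In peroxisomes acyl-CoA oxidases start the round, and in C. elegans this pathway also shortens the side chains of ascaroside pheromones. The mitochondrial enzymes ACDH-1 and ECH-6 also act in the propionate shunt, which degrades propionate when the vitamin B12 dependent route is limiting.

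Poly(A) RNA of whole worms on day 1 of adulthood was sequenced from 5 genotypes with 5 replicates each, every sample a pool of 500 to 600 animals grown on OP50-1 bacteria. N2 is the wild type. Strain AEF243, flp-17(lof), carries flp-17(n4894) and lacks normal function of a neuropeptide gene, and egl-6(lof), strain AEF236, carries egl-6(n4537), in the gene of a receptor for that peptide. The flp-17oe strain AEF148 carries the extrachromosomal array ssrEx1193, in which the flp-17 promoter drives flp-17 fused to GFP and the myo-3 promoter drives mCherry in muscle. Strain AEF237, flp-17oe egl-6(lof), holds that array in the egl-6(n4537) background and is called the double strain. Extrachromosomal arrays can be lost from some cells of an animal. The strains had been outcrossed 6 times. Array animals were sorted by their fluorescence 24 hours before collection and the other strains were washed and replated instead, so array and sorting cannot be told apart. Replicate 1 of each genotype formed batch 1 and replicates 2 to 5 formed batch 2.

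Libraries held 25164923 to 99717657 counts. The library flp-17(lof) replicate 1 stood apart, with the lowest total, 9.5% of its counts from ribosomal RNA genes against 0.276% to 3.12% elsewhere, and a scaling factor of 0.74 against 0.981 to 1.05. Counts scaled to library size are given per 1e+06 counts (CPM). On this scale flp-17 averaged 4.62 in N2, 0.310 after its loss, 188 in flp-17oe and 232 in the double strain, and egl-6 averaged 6.03 in N2 against 2.81 and 2.89 in both egl-6(lof) strains. In these whole-worm samples fewer cells of a type and less RNA per cell cannot be told apart. The labels do not say that replicates were separate cultures, so p-values measure the spread between samples.

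In N2 the mitochondrial genes chosen here had the higher summed level. The peroxisomal sum covers only part of its pathway. The choice by symbol left out the peroxisomal genes maoc-1, dhs-28 and daf-22. In N2 these averaged 34.3, 96.8 and 62.3 CPM, against 41.5 CPM for acox-1.1, values not scaled to exon length. On the scale of CPM per kb of exon, which allows levels to be compared between genes, the 25 mitochondrial genes summed to 2551 ± 144 (SD, n = 5) and the 9 peroxisomal genes to 68.4 ± 1.63. The highest mitochondrial levels were those of acdh-1, the acyl-CoA dehydrogenase of the propionate shunt, at 670 ± 65.0 CPM per kb, of ech-6, the hydratase that follows it, at 532 ± 52.7, and of the thiolase acaa-2 at 235 ± 16.8. The thiolase kat-1 came next at 210 ± 8.13. In N2, acdh-1 and ech-6 made up 47.1% of the mitochondrial sum, and 64.6% with acaa-2 and kat-1 added.

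The peroxisomal genes chosen here lay lower. Their highest were acyl-CoA oxidases, acox-1.1 at 16.5 ± 0.443 CPM per kb, acox-1.5 at 12.5 ± 0.733 and acox-1.4 at 8.87 ± 0.672, and acox-1.1 and acox-1.5 held 42.3% of the peroxisomal sum. In all, 16 mitochondrial genes had a mean above that of acox-1.1. Among the unassigned hydratases ech-7 was highest at 112 ± 19.6 CPM per kb, followed by ech-4 at 70.6 ± 3.00 and ech-2 at 32.3 ± 1.96.

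Levels spanned a 4190-fold range down to acdh-6 at 0.160 ± 0.0423 CPM per kb. Below 1 CPM per kb stood 7 genes, namely acdh-5, acdh-6, acdh-8, cpt-3, cpt-4, ech-1.1 and ech-9, and these rested on 1 to 411 counts per library. The SD was 0.848% to 24.3% of the mean over N2 libraries for the genes at or above 1 CPM per kb and 18.5% to 151% for those below it. Several genes lie side by side in the ce11 assembly. On chromosome I acox-1.1, acox-1.2, acox-1.3 and acox-1.4 follow each other on the plus strand with gaps of 52, 343 and 34 bp, on chromosome IV ech-9 and ech-8 are 1296 bp apart, and on chromosome X acdh-10 and acdh-7, orthologs of the medium-chain dehydrogenase, are adjacent. Reads that could belong to close paralogs may be split between them, as the counting is not described in the sources used here.

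**Figure D1:**
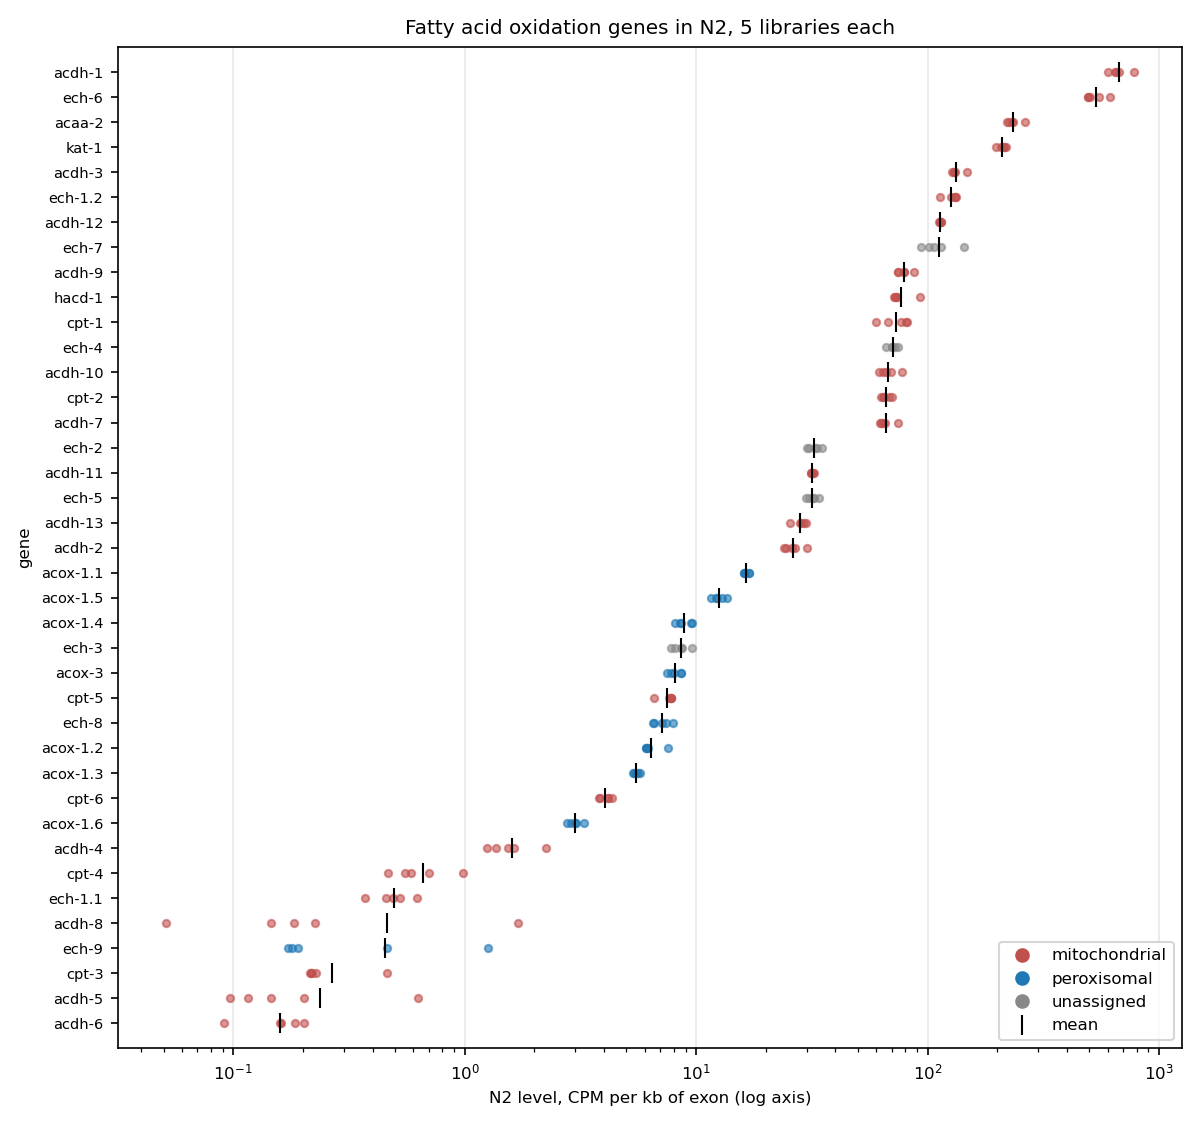
Level of each of the 39 genes in the 5 N2 libraries, in CPM per kb of exon on a log axis, with a bar at the mean and colour for the assigned compartment. The 16 genes above acox-1.1 among the red points are mitochondrial, and 7 genes lie below 1 CPM per kb.

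The flp-17 array in otherwise wild-type animals was compared with N2, a contrast that also holds the sorting. Of the 39 genes 5 fell and 1 rose at an adjusted p under 0.05 (Benjamini-Hochberg over all 14634 genes, quasi-likelihood test of edgeR), which is 15.4% against 6.96% of all tested genes. The falls made up 12.8% of the 39 genes and 2.18% of all tested genes, and the rise 2.56% and 4.78%. At an unadjusted p under 0.05 there were 13, and DESeq2 called 9. The mitochondrial genes that fell were acdh-2, acdh-9, kat-1 and ech-6, 4 of 25, the peroxisomal gene that fell was acox-1.1, 1 of 9, and the rise was ech-9. The median log2 change was -0.08 over the mitochondrial, -0.06 over the peroxisomal and 0.00 over all tested genes.

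The array in the egl-6(lof) background was compared with egl-6(lof) alone. These libraries are separate from those of flp-17oe and N2. Both comparisons come from the same model of all 25 libraries, with a shared batch term and a shared estimate of spread, so they are not fully independent. Here 10 of the 39 genes fell and 1 rose, 28.2% against 14.4% of all tested genes. The falls made up 25.6% of the 39 against 8.38% of all tested genes, and the rise 2.56% against 6.02%. Unadjusted, 14 passed, and DESeq2 called 12. The 6 genes that changed in flp-17oe against N2 were all among these 11, which is 100% of the one list and 54.5% of the other, each in the same direction. Both comparisons hold the same array and sorting. How often calls repeated over all tested genes was not counted, so this overlap cannot be read as particular to the 39 genes. The further falls were acdh-1, acdh-5, acdh-8, cpt-5 and acox-1.2, so that 8 of 25 mitochondrial and 2 of 9 peroxisomal genes fell. Median log2 changes were -0.07, -0.11 and 0.02 over mitochondrial, peroxisomal and all tested genes.

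**Figure D2:**
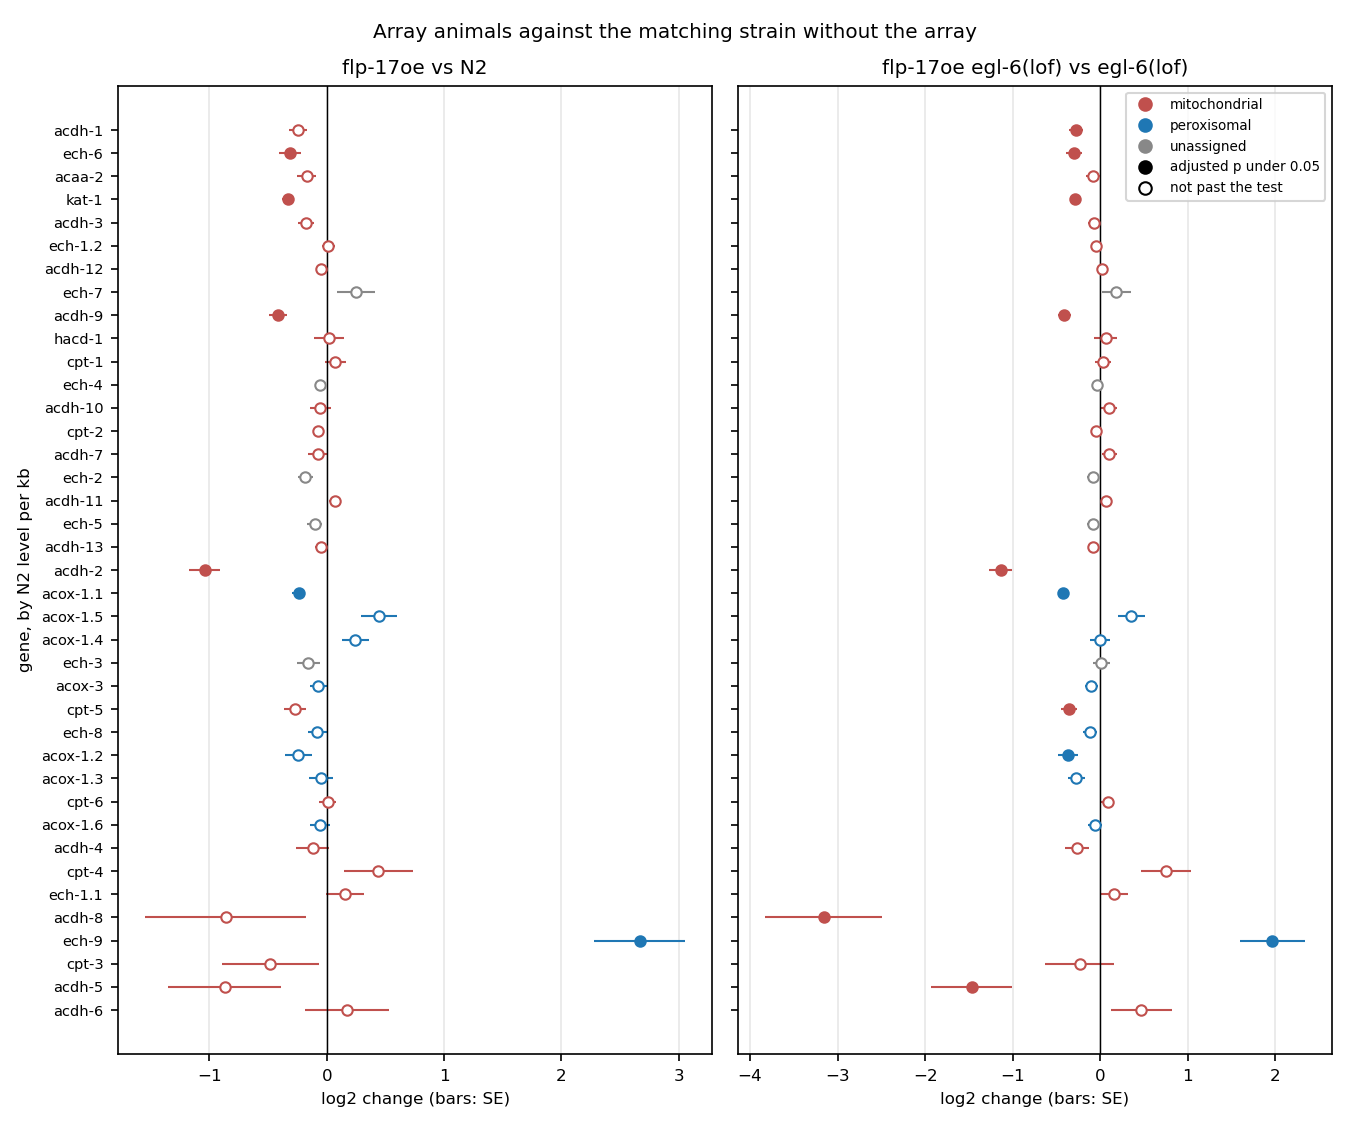
Log2 change (points) with its standard error (bars) of each gene in flp-17oe against N2 and in the double strain against egl-6(lof), ordered by N2 level per kb, with filled points past an adjusted p of 0.05. The x axes of the panels differ, ech-9 is the only filled point to the right in either, and acdh-2, acdh-9, kat-1, ech-6 and acox-1.1 are filled to the left in both.

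The acyl-CoA dehydrogenase acdh-2 (ce11 chromosome II, 5544778 to 5547492, minus strand) showed the largest fall in flp-17oe. Its 5 N2 libraries held 45.7, 56.5, 50.2, 48.5 and 45.0 CPM, and its 5 flp-17oe libraries 26.3, 24.3, 25.3, 22.3 and 21.5 CPM. In egl-6(lof) the values were 44.5, 47.5, 42.7, 43.5 and 39.9 CPM, and in the double strain 25.9, 13.4, 23.4, 17.8 and 18.9 CPM. Every library with the array lay below every library without it. On the log2 scale the change was -1.04 (SE 0.13, adjusted p = 1.57e-05, edgeR), 0.486 times N2, and in the egl-6(lof) background -1.14 (SE 0.13, adjusted p = 4.75e-06, edgeR), 0.455 times. Within batch 1 the differences were -0.80 and -0.78, and within batch 2 the fall in the egl-6(lof) background was -1.26. The annotated exons of acdh-2 share 87 bp with those of ins-13 on the same strand, and reads there are of uncertain origin.

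The dehydrogenase acdh-9 (chromosome II) fell by a smaller amount. Its N2 libraries held 106, 117, 99.9, 106 and 99.7 CPM and its flp-17oe libraries 78.7, 85.7, 81.7, 74.9 and 75.2 CPM. It stood at 98.3, 105, 111, 97.4 and 105 CPM in egl-6(lof) and at 90.9, 66.04, 85.9, 68.4 and 77.6 CPM in the double strain. No array library reached a library of the matching strain without the array. The log2 changes were -0.42 (SE 0.07, adjusted p = 0.000914) and -0.41 (SE 0.07, adjusted p = 0.000548, both edgeR).

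The thiolase kat-1 (chromosome II), which catalyses the last step of the mitochondrial round, fell in both settings. N2 held 262, 284, 276, 283 and 290 CPM, and flp-17oe 218, 228, 218, 231 and 215 CPM. In egl-6(lof) the libraries held 268, 272, 271, 271 and 259 CPM, and in the double strain 243, 209, 234, 207 and 208 CPM. The groups did not overlap in either comparison. The log2 changes were -0.33 (SE 0.05, adjusted p = 0.000336) and -0.28 (SE 0.05, adjusted p = 0.000759, both edgeR). The other thiolase, acaa-2, did not pass the test in any comparison, with log2 changes from -0.17 to 0.08.

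Among the peroxisomal genes acox-1.1, an acyl-CoA oxidase of ascaroside synthesis, fell. Its N2 libraries held 40.5, 42.6, 42.8, 40.6 and 40.99 CPM, and its flp-17oe libraries 33.7, 34.4, 37.1, 35.6 and 34.9 CPM. The egl-6(lof) libraries held 40.0, 45.3, 46.5, 41.4 and 42.2 CPM, and the double strain libraries 34.0, 28.2, 33.3, 30.9 and 34.1 CPM. Array libraries again lay below all others. On the log2 scale it changed by -0.24 (SE 0.05, adjusted p = 0.00795) against N2 and -0.42 (SE 0.05, adjusted p = 2.35e-05, both edgeR) against egl-6(lof). The direct test of whether these effects differ gave -0.18 (adjusted p = 0.602, edgeR), and the call against N2 was lost without replicate 4 of every genotype (log2 -0.23, adjusted p = 0.0752) or without replicate 5 (log2 -0.26, adjusted p = 0.0612).

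The gene that rose, ech-9, is a predicted peroxisomal enoyl-CoA hydratase at low level. N2 held 2.09, 0.759, 0.314, 0.285 and 0.295 CPM, from 14 to 88 counts, and flp-17oe 6.32, 2.96, 1.93, 4.48 and 3.91 CPM, from 85 to 411 counts. In egl-6(lof) it stood at 3.64, 0.663, 0.522, 0.302 and 0.772 CPM, and in the double strain at 6.00, 1.65, 1.39, 3.97 and 4.75 CPM. In every genotype the batch 1 library was the highest, so that the groups overlapped over all libraries, while within batch 2 every array library exceeded every library of the matching strain. Its log2 change was 2.67 (SE 0.39, adjusted p = 0.000108), 6.35 times N2, and 1.97 (SE 0.37, adjusted p = 0.00079, both edgeR), 3.91 times egl-6(lof). The differences were 1.58 and 0.72 in batch 1 and 2.95 and 2.19 in batch 2, and without the batch term the call against egl-6(lof) was lost (log2 1.61, adjusted p = 0.0933). Its neighbour ech-8 did not pass the test in any comparison, with log2 changes from -0.11 to 0.01.

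**Figure D3:**
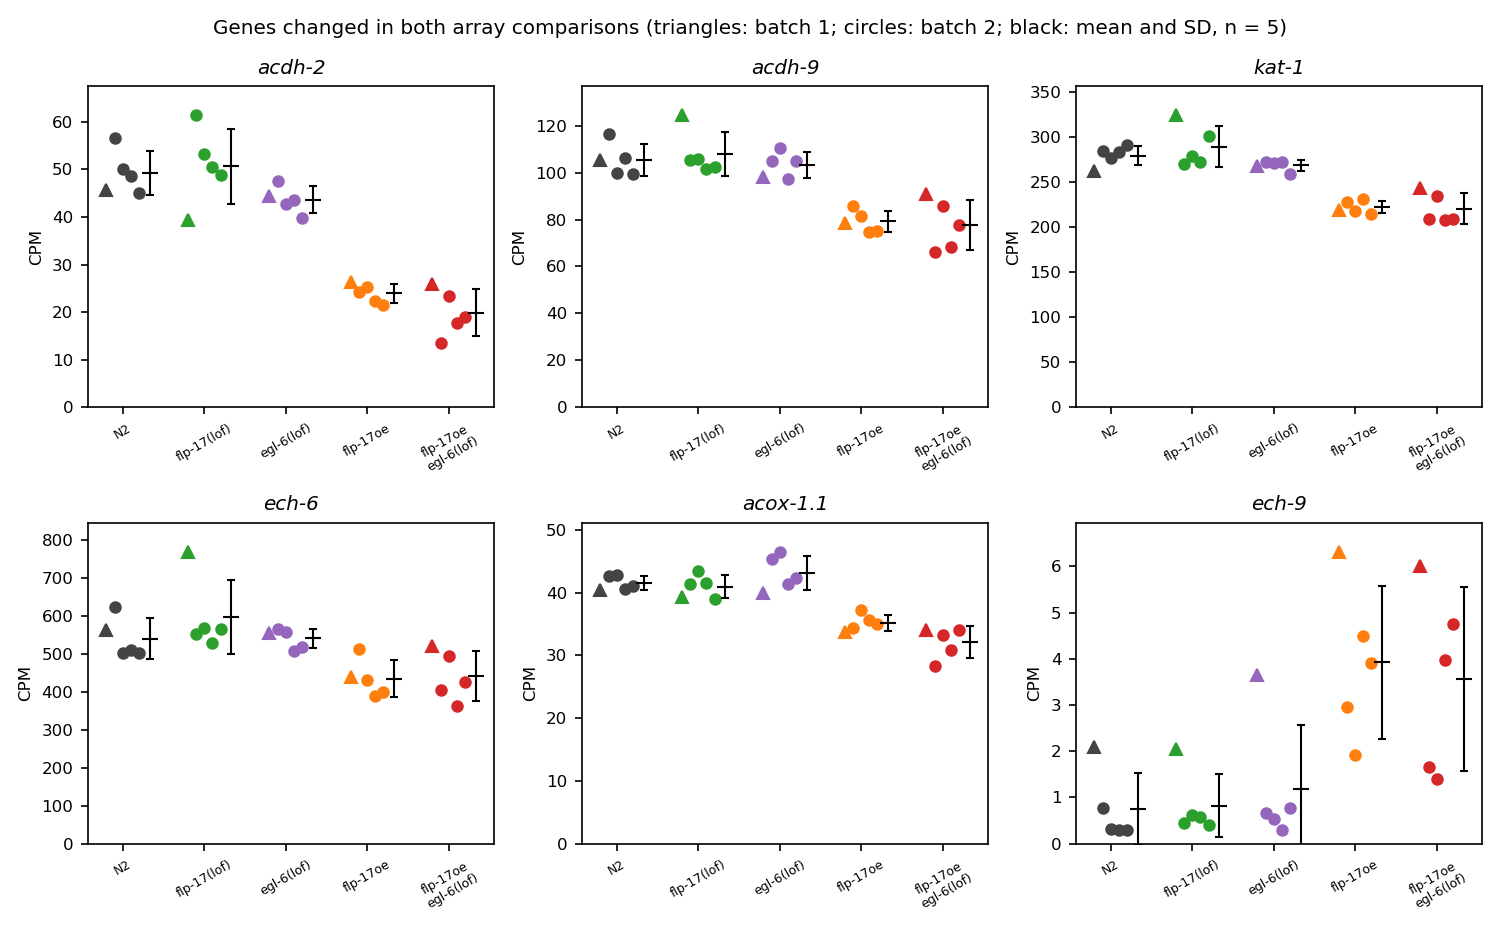
CPM of the 6 genes changed in both array comparisons, by library and genotype, with triangles for batch 1, circles for batch 2 and the mean with SD (n = 5) beside each group; each panel has its own axis from 0. For acdh-2 every array library (13.4 to 26.3 CPM) lies below every other library (39.5 to 61.4 CPM), and for ech-9 the highest non-array library of N2, flp-17(lof) and egl-6(lof) is the triangle.

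Of the propionate shunt, acdh-1 and ech-6 are among the 39 genes, and the later enzymes were taken from a separate list. The shunt hydratase ech-6 (chromosome III) held 562, 625, 501, 511 and 502 CPM in N2, and 440, 514, 432, 389 and 399 CPM in flp-17oe. In egl-6(lof) it held 554, 566, 557, 507 and 519 CPM, and in the double strain 520, 406, 495, 363 and 425 CPM. The ranges overlapped in both comparisons, by 1 array library each against N2 (replicate 2) and egl-6(lof) (replicate 1). Log2 changes were -0.31 (SE 0.09, adjusted p = 0.0421) and -0.30 (SE 0.09, adjusted p = 0.0311, both edgeR). These calls were lost in 15 and 10 of 23 alternatives, with adjusted p up to 0.192 and 0.144. Leaving out N2 replicate 2, 3, 4 or 5 or flp-17oe replicate 1, 3, 4 or 5 was enough for the call against N2 (log2 -0.34 to -0.23), and egl-6(lof) replicate 2 or 3 or the double strain replicate 2, 4 or 5 for the other (log2 -0.29 to -0.24).

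For acdh-1, the dehydrogenase one step earlier (chromosome I), N2 held 1131, 1304, 1081, 1092 and 1013 CPM and flp-17oe 992, 1020, 939, 885 and 919 CPM. In egl-6(lof) the values were 1248, 1160, 1148, 1044 and 986 CPM, and in the double strain 1116, 798, 992, 856 and 855 CPM. It fell in the egl-6(lof) background (log2 -0.28, SE 0.08, adjusted p = 0.0154, edgeR) and did not pass against N2 (log2 -0.24, adjusted p = 0.0608). The call was lost in 6 of 23 alternatives (adjusted p up to 0.0711). Without the double strain replicate 2 the fall was -0.24 (adjusted p = 0.0674), and without flp-17(lof) replicate 1, which belongs to neither group but enters the shared estimate of spread, the value against N2 passed (log2 -0.25, adjusted p = 0.0412).

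Of the 7 other genes of propionate breakdown on a list drawn up for this work, 3 fell in flp-17oe against N2 and 2 in the double strain against egl-6(lof), where 2.18% and 8.38% of all tested genes fell. The median log2 change of the list was -0.09 and -0.10. The genes that fell were the later enzymes of the shunt. The hydrolase gene hach-1 held 314, 367, 329, 360 and 378 CPM in N2 and 261, 271, 249, 258 and 249 CPM in flp-17oe, with no overlap (log2 -0.44, SE 0.05, adjusted p = 1.57e-05, edgeR). In the egl-6(lof) background it went from 318 to 333 CPM down to 231 to 278 CPM (log2 -0.35, SE 0.05, adjusted p = 0.000185, edgeR). The dehydrogenase hphd-1 fell by 0.27 and 0.32 on the log2 scale, and alh-8, the last enzyme, fell by 0.18 against N2 (adjusted p = 0.0321) and did not pass in the egl-6(lof) background (log2 -0.10, adjusted p = 0.236).

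The genes of the vitamin B12 dependent route, pcca-1, pccb-1, mce-1 and mmcm-1, did not pass the test in any comparison; their log2 changes in flp-17oe against N2 ran from -0.09 (mce-1) to 0.00 (pcca-1). The nuclear receptor genes nhr-10 and nhr-68, known activators of the shunt, had log2 changes of 0.13 (adjusted p = 0.505) and 0.10 (adjusted p = 0.559) in that comparison and passed in none. In the array comparisons, where 2.18% and 8.38% of all tested genes fell, 1 of the 11 regulators listed changed. It was nhr-114, a nuclear receptor gene known for its link to vitamin B12 and tryptophan supply, which fell from 134 ± 7.63 CPM in N2 to 109 ± 2.83 in flp-17oe (log2 -0.29, adjusted p = 0.00693) and from 128 ± 14.3 in egl-6(lof) to 95.8 ± 13.6 in the double strain (log2 -0.42, adjusted p = 0.000194, both edgeR, n = 5).

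**Figure D4:**
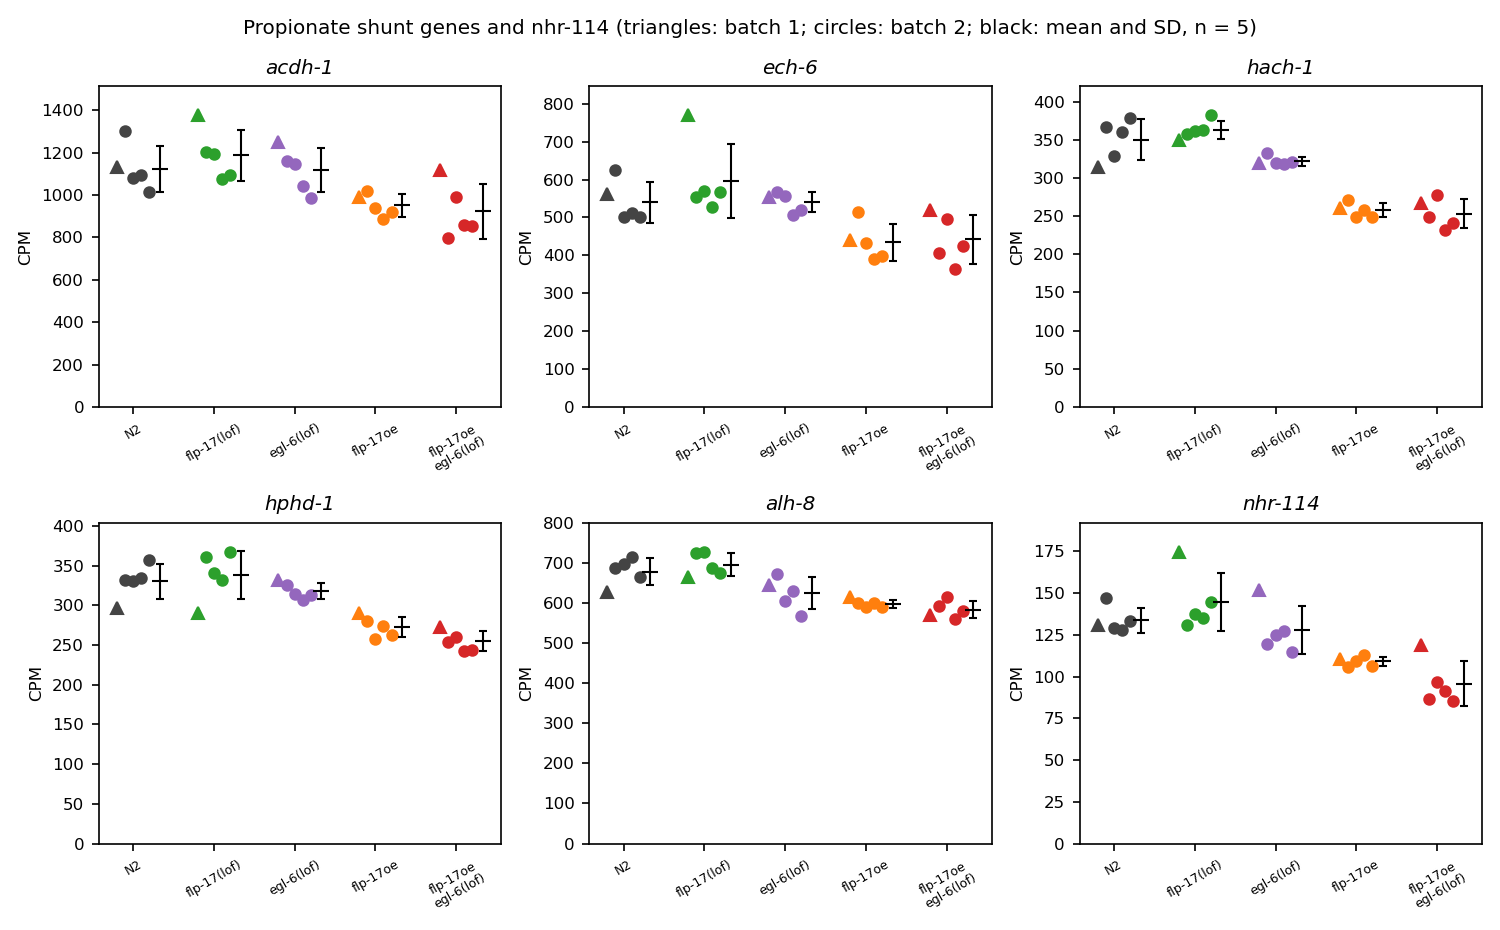
CPM by library and genotype of the shunt genes in pathway order (acdh-1, ech-6, hach-1, hphd-1, alh-8) and of nhr-114, with triangles for batch 1, circles for batch 2 and the mean with SD (n = 5); axes start at 0 and differ between panels. For hach-1 the array libraries (231 to 278 CPM) lie below all others (314 to 382 CPM), whereas for acdh-1 and ech-6 the groups overlap.

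The remaining genes that fell in the double strain against egl-6(lof) had log2 changes against N2 in flp-17oe that did not pass. The carnitine palmitoyltransferase cpt-5 held 17.1, 17.0, 18.4, 18.0 and 18.9 CPM in egl-6(lof) and 13.1, 15.0, 15.5, 13.7 and 12.6 CPM in the double strain, with no overlap (log2 -0.36, SE 0.09, adjusted p = 0.0100, edgeR). Against N2 its change in flp-17oe was -0.27 (adjusted p = 0.0847). The call was lost without replicate 4 of every genotype (log2 -0.34, adjusted p = 0.0811) or without replicate 5 (log2 -0.31, adjusted p = 0.0936).

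The oxidase acox-1.2, in the tandem group with acox-1.1, held 12.3, 17.1, 16.6, 16.4 and 17.4 CPM in egl-6(lof) and 9.40, 11.4, 11.0, 12.8 and 17.1 CPM in the double strain. The groups overlapped, through egl-6(lof) replicate 1 and the double strain replicates 4 and 5. The log2 change was -0.37 (SE 0.11, adjusted p = 0.0272, edgeR), and -0.24 in flp-17oe against N2. The call in the egl-6(lof) background was lost in 12 of 23 alternatives (adjusted p up to 0.155), among them without egl-6(lof) replicate 2, 3, 4 or 5 or the double strain replicate 1, 2, 3 or 4 (log2 -0.37 to -0.30).

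The dehydrogenase gene acdh-8 is at low level and was high in the libraries that were high in sperm markers. It held 0.761, 1.86, 2.11, 2.36 and 1.07 CPM in egl-6(lof), from 41 to 143 counts, and 0.787, 0.0584, 0.131, 0.316 and 0.0737 CPM in the double strain, from 3 to 53 counts. The batch 1 libraries were level with each other, and in batch 2 all 4 egl-6(lof) libraries were higher. The log2 change was -3.16 (SE 0.67, adjusted p = 0.00206, edgeR), 0.112 times egl-6(lof), with 0.05 in batch 1 and -3.53 in batch 2. N2 held 2.30, 0.197, 0.247, 0.304 and 0.0695 CPM, the highest again from batch 1.

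Against N2 the change of acdh-8 in egl-6(lof) was 2.29 (SE 0.64, adjusted p = 0.0907, edgeR), with -1.55 in batch 1 and 3.04 in batch 2. It passed without replicate 1 of every genotype (log2 3.19, adjusted p = 3.16e-05), without flp-17(lof) replicate 1 (log2 2.44, adjusted p = 0.0279) and with DESeq2. The direct test of whether the array effect differs between backgrounds gave -2.30 for acdh-8 (adjusted p = 0.59, edgeR).

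The dehydrogenase acdh-5 held 0.279, 0.533, 0.703, 0.637 and 0.294 CPM in egl-6(lof), from 15 to 41 counts, and 0.327, 0.136, 0.157, 0.158 and 0.184 CPM in the double strain, from 6 to 22 counts. The groups overlapped through the batch 1 libraries. The log2 change was -1.47 (SE 0.46, adjusted p = 0.0322, edgeR), with 0.21 in batch 1 and -1.51 in batch 2. The call was lost in 13 of 23 alternatives (adjusted p up to 0.175), among them without egl-6(lof) replicate 2, 3 or 4 or any double strain replicate (log2 -1.51 to -1.27).

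Beside these values stand those of 6 sperm marker genes (msp-31, msp-33, msp-36, spe-41, gsp-3 and gsp-4), none at 0 in any library. Of the 6, 4 rose in egl-6(lof) against N2, where 0.424% of all tested genes rose. The double strain against flp-17oe had 1 that rose, where 1.18% of all tested genes rose. In the double strain against egl-6(lof) 5 fell, where 8.38% of all tested genes fell. The remaining gene, spe-41, averaged 5.16 CPM in egl-6(lof) and 5.87 CPM in the double strain. It held 5.39 to 6.46 CPM in the double strain libraries and so made up much of the low sums there. The summed level of the 6 markers was 21.0, 36.1, 44.0, 40.1 and 24.1 CPM in egl-6(lof) and 18.9, 6.24, 8.00, 10.4 and 8.05 CPM in the double strain. In N2 it was 38.7, 7.23, 7.99, 7.77 and 5.18 CPM, so the N2 library high in acdh-8 was also the one high in sperm markers. It ran from 9.13 to 14.3 CPM in flp-17(lof) and from 5.50 to 19.4 CPM in flp-17oe. The part of the sperm markers in the changes of acdh-8 and acdh-5 was not tested.

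**Figure D5:**
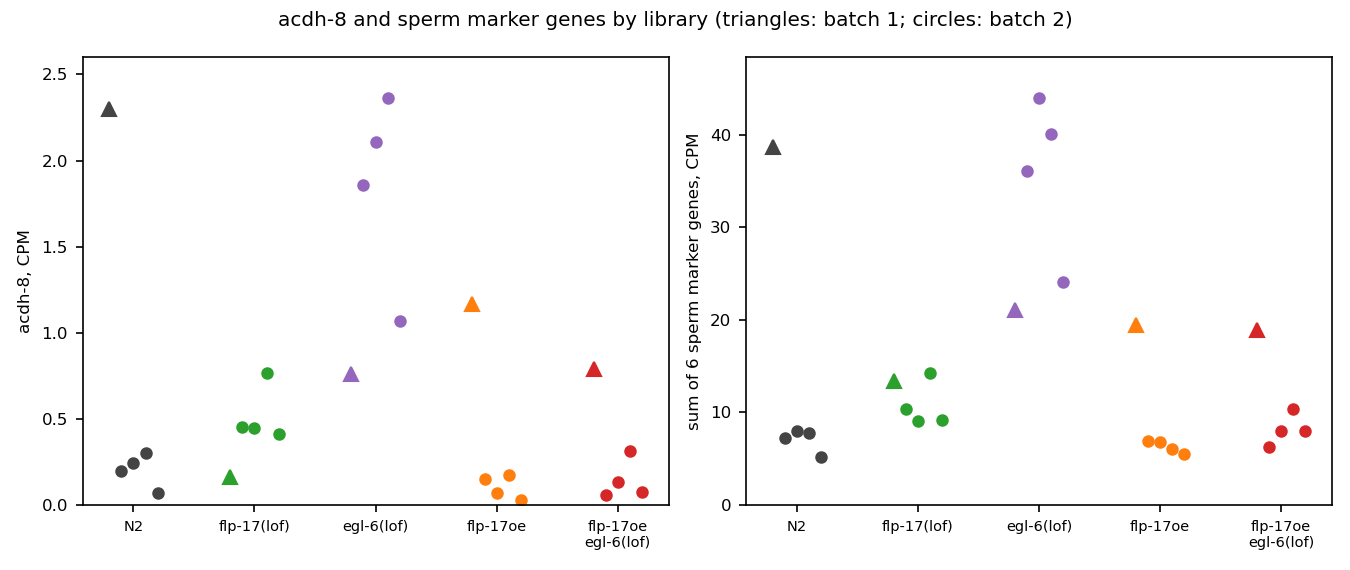
CPM of acdh-8 (left) and summed CPM of 6 sperm marker genes (right) by library and genotype, with triangles for batch 1 and circles for batch 2. N2 replicate 1 is high in both (2.30 and 38.7 CPM), as are the batch 2 libraries of egl-6(lof) (1.07 to 2.36 and 24.1 to 44.0 CPM).

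The effect of losing egl-6 in array animals was read from the double strain against flp-17oe. Of the 39 genes 1 rose, 2.56% against 1.39% of all tested genes (1.18% higher, 0.219% lower), 3 had an unadjusted p under 0.05 and DESeq2 also called 1. It was cpt-6, a carnitine palmitoyltransferase by family, which held 9.61, 9.56, 9.93, 9.80 and 9.40 CPM in flp-17oe and 9.16, 11.8, 13.3, 12.4 and 13.2 CPM in the double strain. Replicate 1 of the latter lay below all flp-17oe libraries and the other 4 above them. The log2 change was 0.30 (SE 0.07, adjusted p = 0.0346, edgeR), with -0.07 in batch 1 and 0.39 in batch 2. It was lost in 16 of 23 alternatives (adjusted p up to 0.363), among them without any flp-17oe library or the double strain replicate 2, 3, 4 or 5 (log2 0.25 to 0.32). In egl-6(lof) against N2 the change of cpt-6 was 0.23 (adjusted p = 0.165), and in batch 2 alone 0.28 (adjusted p = 0.0118).

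In the mutants without the array no gene of the 39 passed. In flp-17(lof) against N2 the count was 0, against 0.0752% of all tested genes (0.041% higher, 0.0342% lower), with 0 at an unadjusted p under 0.05 and 0 by DESeq2. The log2 changes ran from -0.54 (acdh-5) to 0.45, and the largest of the other families were those of ech-7 (0.29, SE 0.16), cpt-4 (-0.35, SE 0.30) and acox-1.4 (0.12, SE 0.11). In egl-6(lof) against N2 it was 0, against 0.485% of all tested genes (0.424% higher, 0.0615% lower), with 3 at an unadjusted p under 0.05 and 1, acdh-8, by DESeq2. The largest changes there were those of acdh-8 and acdh-5 (0.80, SE 0.44), and the largest within the ech, cpt and acox families were those of ech-9 (0.55, SE 0.40), cpt-3 (0.27, SE 0.39) and acox-1.2 (0.26, SE 0.11).

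The direct test of whether the array acts differently with and without egl-6 called 0 of the 39 genes, against 0.0888% of all tested genes (0.00683% higher, 0.082% lower), with 2 at an unadjusted p under 0.05 (acdh-8 and acox-1.1) and 0 by DESeq2. For the genes changed in both array comparisons, the estimated difference (array effect with egl-6(lof) minus that without) was -0.10 (SE 0.18) for acdh-2, 0.00 (SE 0.10) for acdh-9, 0.05 (SE 0.08) for kat-1, 0.02 (SE 0.13) for ech-6, -0.18 (SE 0.08) for acox-1.1 and -0.70 (SE 0.53) for ech-9. A difference between the backgrounds was therefore not detectable, which does not show that the effects are equal.

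Set side by side over the 5 genotypes, the mean mitochondrial sum was lower with the array in both backgrounds. The mean peroxisomal sum was higher in flp-17oe than in N2 and lower in the double strain than in egl-6(lof), and no test was made of these sums. With the array the mitochondrial sum was 2218 ± 112 CPM per kb in flp-17oe and 2224 ± 174 in the double strain, and without it 2551 ± 144 in N2, 2514 ± 80.2 in egl-6(lof) and 2673 ± 249 in flp-17(lof) (SD, n = 5). All 5 flp-17oe libraries (2117 to 2409) lay below the lowest N2 library (2450), and in the egl-6(lof) background the groups met at 2427, the highest double strain and the lowest egl-6(lof) library. Without acdh-1 and ech-6 the sums were 1349 ± 36.03 in N2, 1224 ± 45.3 in flp-17oe, 1316 ± 36.4 in egl-6(lof) and 1239 ± 51.2 in the double strain.

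The peroxisomal sum was 72.0 ± 1.65 CPM per kb in flp-17oe and 69.0 ± 6.62 in the double strain, against 68.4 ± 1.63 in N2, 72.6 ± 2.97 in egl-6(lof) and 67.0 ± 3.91 in flp-17(lof). Without ech-9 it was 69.6 ± 2.41 in flp-17oe against 67.97 ± 1.77 in N2, and 66.8 ± 6.31 in the double strain against 71.9 ± 3.40 in egl-6(lof). The ratio of the mitochondrial to the peroxisomal sum was 30.8 ± 1.83 in flp-17oe and 32.5 ± 3.93 in the double strain, against 37.3 ± 1.65 in N2, 34.7 ± 0.981 in egl-6(lof) and 40.2 ± 6.28 in flp-17(lof). Its highest value, 51.1, belonged to flp-17(lof) replicate 1. These sums are led by a few genes: acox-1.5 held 24.3 to 28.2 CPM in N2 and 31.9 to 39.8 CPM in flp-17oe, with no overlap, but did not pass the test (log2 0.45, SE 0.15, adjusted p = 0.0827).

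Gene by gene, the difference between the classes had no single sign over the comparisons. The median log2 change of mitochondrial minus peroxisomal genes was 0.05 in flp-17(lof) against N2, -0.14 in egl-6(lof) against N2, -0.02 in flp-17oe against N2, 0.12 in the double strain against flp-17oe and 0.04 in the double strain against egl-6(lof). A class difference computed for each single library, without adjustment for batch, had an SD of 0.0917 within genotypes. That SD is not the spread of the fitted differences above, and no test was made of them. Under other settings the sign turned in flp-17(lof) and flp-17oe against N2 and in the double strain against egl-6(lof). Genes whose 5 libraries did not overlap with those of the comparison group numbered 6 in flp-17oe against N2 (1 above, 5 below), against 8.66% of all tested genes, and 6 in the double strain against egl-6(lof) (all below), against 8.19%.

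Of the 39 genes 27 passed the test in no comparison, among them the carnitine palmitoyltransferases cpt-1 (log2 changes from -0.10 to 0.07) and cpt-2 (-0.08 to -0.03), the very long-chain dehydrogenase acdh-12 (-0.04 to 0.04), the trifunctional protein subunit ech-1.2 (-0.11 to 0.01) and hacd-1 (-0.03 to 0.10). The dehydrogenase acdh-3 did not overlap between flp-17oe and N2 and had a log2 change of -0.17 (adjusted p = 0.143), which was -0.18 (adjusted p = 0.0338) without flp-17(lof) replicate 1. For the 23 such genes at or above 1 CPM per kb, the log2 changes lay between -0.27 and 0.45. For cpt-4 the change in the double strain against egl-6(lof) was 0.75 (SE 0.28, adjusted p = 0.0836).

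Other mitochondrial and peroxisomal genes were taken from lists drawn up for this work. The list called mitochondrial partners also holds branched-chain ketoacid dehydrogenase subunits, so a place on it does not show a part in fatty acid oxidation. Over all tested genes 2.18% fell in flp-17oe against N2 and 8.38% in the double strain against egl-6(lof). Of 16 tested mitochondrial partners 2 fell in flp-17oe against N2, the isovaleryl-CoA dehydrogenase ivd-1 (log2 -0.21) and the carrier dif-1 (-0.17), with a list median of -0.09. In the egl-6(lof) background 6 fell, ivd-1 (-0.21), the branched-chain ketoacid dehydrogenase subunits bckd-1A and bckd-1B (-0.18 each) and the dienoyl-CoA reductase genes decr-1.1 (-1.28), decr-1.2 (-3.42) and decr-1.3 (-2.83). Of these, decr-1.2 held 0.223, 0.429, 0.683, 0.436 and 0.202 CPM in egl-6(lof) and 0.119, 0.0195, 0.0262, 0.0527 and 0 CPM in the double strain, and decr-1.3 held 0.257 to 0.587 CPM and 0.0176 to 0.149 CPM. In N2 the highest library for both was replicate 1, at 0.451 and 0.546 CPM against at most 0.0570 and 0.0897 CPM in the others. That library and those of egl-6(lof) had the highest summed sperm markers. Replicate 1 of flp-17oe (19.4 CPM) and of the double strain (18.9 CPM) came close to egl-6(lof) replicate 1 (21.0 CPM). For decr-1.1 the highest N2 library was replicate 2, at 1.503 CPM against 1.257 CPM in replicate 1. Its highest library of all was flp-17(lof) replicate 1 (2.846 CPM), where the sperm markers summed to 13.4 CPM. The part of the sperm markers in the changes of the decr genes was not tested.

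Of 13 peroxisomal partners 3 fell and 1 rose in flp-17oe against N2, where 2.18% of all tested genes fell and 4.78% rose. The catalase gene ctl-2 (-0.20), the acyl-CoA synthetase acs-7 (-0.35) and B0395.3 (-0.20) fell, and the ABC transporter gene pmp-1 rose (0.48). In the egl-6(lof) background, where 8.38% of all tested genes fell, 5 fell. They were the hydratase maoc-1 (-0.28), acs-7 (-0.38), the transporter genes pmp-2 (-0.35) and pmp-5 (-0.31) and B0395.3 (-0.39). The later enzymes of ascaroside shortening, dhs-28 and daf-22, did not pass in either comparison (dhs-28 -0.26 in each, daf-22 -0.28 and -0.18). None of 11 peroxisome import genes passed in any comparison, and in the other comparisons of genotypes no gene of these lists did.

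Markers of tissues moved between the same groups. Over all tested genes 4.78% rose and 2.18% fell in flp-17oe against N2, and 6.02% rose and 8.38% fell in the egl-6(lof) background. Of 7 precuticle and molting genes 5 rose in flp-17oe against N2 and 6 in the double strain against egl-6(lof). The highest of the 7 in N2, nas-37, had lower means with the array. It averaged 21.1 CPM in N2, 19.5 in flp-17oe, 21.2 in egl-6(lof) and 18.2 in the double strain. The summed level of the 7 genes was 30.7 to 37.4 CPM in N2, 35.7 to 75.1 in flp-17oe, 33.2 to 42.4 in egl-6(lof) and 35.3 to 143 in the double strain. Of 4 body wall muscle genes 2 and 3 fell in these comparisons, with sums of 2149 to 2794 CPM in N2, 1752 to 2053 in flp-17oe, 2279 to 2950 in egl-6(lof) and 1332 to 2008 in the double strain. Of 8 intestine markers elt-2 rose in flp-17oe against N2 (log2 0.28), and pept-1 and act-5 fell in the egl-6(lof) background (-0.53 and -0.41), while the summed level overlapped in every genotype (1436 to 2241 CPM). The adult cuticle collagen gene col-19 fell in the egl-6(lof) background (-1.14), and 0 of 5 oocyte and yolk genes changed. No marker was at 0 in any library, and the part of these markers in the changes of the oxidation genes was not tested.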

How the data were processed

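The authors aligned reads with STAR 2.7.11b to ce11, per the submitters' processing notes, and deposited raw gene counts, per the labels and the whole-number values. Which program counted them, with which annotation and strand setting, is not given in the sources used here. Positions and exon lengths came from the Ensembl 115 annotation of that assembly (40782 of 42532 genes matched). Genes were filtered with filterByExpr, counts were scaled with TMM factors, and a model with genotype and batch was fitted to all 25 libraries (edgeR 4.0.16 robust quasi-likelihood, limma 3.58.1, R 4.3.3), with Benjamini-Hochberg adjustment over 14634 genes and a threshold of 0.05. CPM use TMM-scaled library sizes. Alternatives were RLE factors, DESeq2 1.42.0, no and stricter count filters, no batch term, a replicate block, the compared genotypes alone, and replicates or single libraries left out. The procedure was tested on simulated data. The genes and lists were chosen with earlier results of these data known. The text names the genes called in a comparison, the highest 3 of each compartment and the largest change of each family. All changed genes of the pathway and regulator lists are named, while changed tissue markers are in part given as counts. Other genes named were chosen after their values were seen. The main model did not pair libraries by replicate number, and the replicate block was an alternative alone. To look for pairing, departures from the group averages were correlated between libraries sharing a replicate number. Every correlation exceeded a set threshold of 0.1 for flp-17oe with the double strain alone (0.133 to 0.573). For N2 with flp-17oe they ran from 0.0794 to 0.656. The averages span both batches, so these correlations can also hold a batch difference and do not establish pairing. No replicates were duplicates, with a lowest chi-square per gene of 5.54.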

Additional observations from a re-analysis of the deposited data

Results flagged for a closer look

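In 60 groups of 5 libraries (12 called genes in 5 genotypes) a test for a library far from the others of its group picked 12, where chance picks about 1 in 20. Of the 12, 10 were batch 1 libraries. In flp-17(lof) replicate 1, the library of low depth, acdh-9 stood at 124.59 CPM against 101.68 to 105.75 in the others of its genotype, and ech-6 at 769.64 against 527.54 to 568.53.

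The gene ech-9 was high in replicate 1 of N2 (2.0874 CPM against 0.28477 to 0.75922), of flp-17(lof) (2.0406 against 0.41097 to 0.62711) and of egl-6(lof) (3.6401 against 0.30187 to 0.77181). Replicate 1 was also high for acdh-5 in N2 (0.9014 against 0.13905 to 0.29163) and in the double strain (0.32677 against 0.13617 to 0.18417). The same held for acdh-8 in N2 (2.3009 against 0.069525 to 0.30375) and in flp-17oe (1.1685 against 0.029654 to 0.17493).

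For acox-1.2 the library N2 replicate 4 was high (15.681 against 12.548 to 12.862) and egl-6(lof) replicate 1 low (12.276 against 16.435 to 17.366). For cpt-5 the library N2 replicate 2 was low (15.032 against 17.364 to 17.789).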

How the results depend on the processing

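Counts of called genes among the 39 were recomputed under 37 alternatives. For flp-17oe against N2 (6) they stayed between 4 and 9. For egl-6(lof) against N2 (0) they were 1 with DESeq2, 0 to 3 with each replicate number left out and 0 to 1 with single libraries left out. For the double strain against flp-17oe (1) they were 0 without a count filter, without the batch term and with the compared genotypes alone, and 0 to 1 with replicates left out; 27 of the 37 gave 0. For the double strain against egl-6(lof) (11) they were 6 without the batch term, 7 to 11 with a replicate number left out and 8 to 12 with a library left out. Why these counts moved was not tested. The other counts were 0 throughout. The differences of class medians (mitochondrial minus peroxisomal) moved by less than 0.0917, the SD between single libraries, but their sign turned in 3 comparisons: they ran from -0.07 to 0.005 in flp-17oe against N2, from -0.002 to 0.08 in flp-17(lof) against N2 and from -0.003 to 0.08 in the double strain against egl-6(lof). In fits with the replicate block in place of batch the 6 comparisons called 0, 0, 7, 1, 11 and 0. The calls of acdh-2, acdh-9 and kat-1 in both array comparisons held in all 23 alternatives run for each. Genes below 1 CPM per kb rest on 1 to 411 counts per library, which limits acdh-5, acdh-8 and ech-9. Compartments from protein targeting signals were planned and not run.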
